A study of Mus musculus with 12 samples.

Results

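The subject was the MCM helicase with the factors that load and start it, 10 genes of the 55421 rows in a gene count table from mouse liver. The members were the rows whose symbol was Mcm2, Mcm3, Mcm4, Mcm5, Mcm6, Mcm7, Mcm10, Cdc6, Cdt1 or Cdc45. The question was whether Mcm2 stood higher in the mutants alone or together with the rest of its complex. The subject was chosen by earlier results of these data, namely the call of Mcm2 as higher in the mutants of both strains, so the values of Mcm2 between mutants and controls are given as a description with no test. The other 9 were named for their place in the complex. Of the 10 members, 9 passed the low-count filter, as did 14076 of all genes; Cdc6 did not.

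Proteins Mcm2 to Mcm7 form a ring of 6 different subunits that unwinds DNA at replication forks. The ring is loaded onto origins in G1 by the origin recognition complex with Cdc6 and Cdt1, and is later switched on when Cdc45 and the GINS complex join it, with Mcm10 needed for the start of unwinding. Genes of this machinery are classic E2F targets in dividing mammalian cells, and most hepatocytes of an adult liver are not dividing.

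Messenger RNA was sequenced from livers of adult male C57BL/6 mice, described as mostly hepatocytes, in 4 groups of 3 libraries. Fra1hep mutants switched on a transgene for Fra-1, which Fosl1 encodes, and were compared with Fra1hep controls. Fra2hep mutants switched on a transgene for Fra-2, which Fosl2 encodes, and were compared with Fra2hep controls. Fra-1 and Fra-2 are Fos-related subunits of the transcription factor AP-1. Doxycycline, which keeps the transgenes silent, was withdrawn from all 4 groups at 3 weeks of age, and the controls were littermates from the same cages; the labels used here name neither the alleles of the controls nor the promoter driving the transgenes. The titles give 2 months for all groups and do not say whether this is age or time after withdrawal. The treatment label of the 3 Fra2hep mutants gives 9 months instead. Age and genotype cannot be told apart in the Fra2hep comparison if that label is right.

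Library totals ran from 16834041 to 20464807 counts. Fosl1 had 172, 193 and 252 counts in Fra1hep mutants, against 0, 0 and 1 in Fra1hep controls. Fosl2 averaged 413 ± 12.9 CPM (counts scaled to library size) in Fra2hep mutants and 25.4 ± 19.7 CPM in Fra2hep controls (SD, n = 3 each). Fra2hep control 2 was the highest of its controls for Fosl2, at 48.1 CPM, and Fra2hep control 1 had 11 Fosl1 counts; results were therefore also computed without these 2 controls. In bulk liver, more cells of a type and more RNA per cell cannot be told apart.

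Mcm2 was higher in every mutant than in any control, in both strains. It lies on the minus strand of chromosome 6 at positions 88883474 to 88898780 (GRCm38). In Fra1hep it had 211, 232 and 163 counts in the mutants, against 35, 45 and 44 counts in the controls. These were 11.5, 12.2 and 8.28 CPM in Fra1hep mutants, against 2.29, 2.21 and 2.37 CPM in Fra1hep controls. The lowest mutant thus lay well above the highest control, and the controls differed little among themselves, with the highest 1.07 times the lowest.

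In Fra2hep, Mcm2 had 165, 224 and 223 counts in the mutants, against 71, 55 and 42 counts in the controls. These were 9.64, 12.2 and 11.6 CPM in Fra2hep mutants, against 3.92, 3.07 and 2.27 CPM in Fra2hep controls. The groups again did not overlap. The fitted log2 fold change of Mcm2 was 2.22 ± 0.23 in Fra1hep (SE; 95% interval 1.72 to 2.72), a 4.66-fold difference, and 1.85 ± 0.22 in Fra2hep (95% interval 1.36 to 2.34), a 3.61-fold difference. With Fra2hep controls 1 and 2 both left out, so that 1 control remained, the value in Fra2hep was 2.29. The mutants of both strains reached like levels, 11.1 ± 1.34 CPM in Fra2hep and 10.7 ± 2.11 CPM in Fra1hep (SD, n = 3 each).

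**Figure D1:**
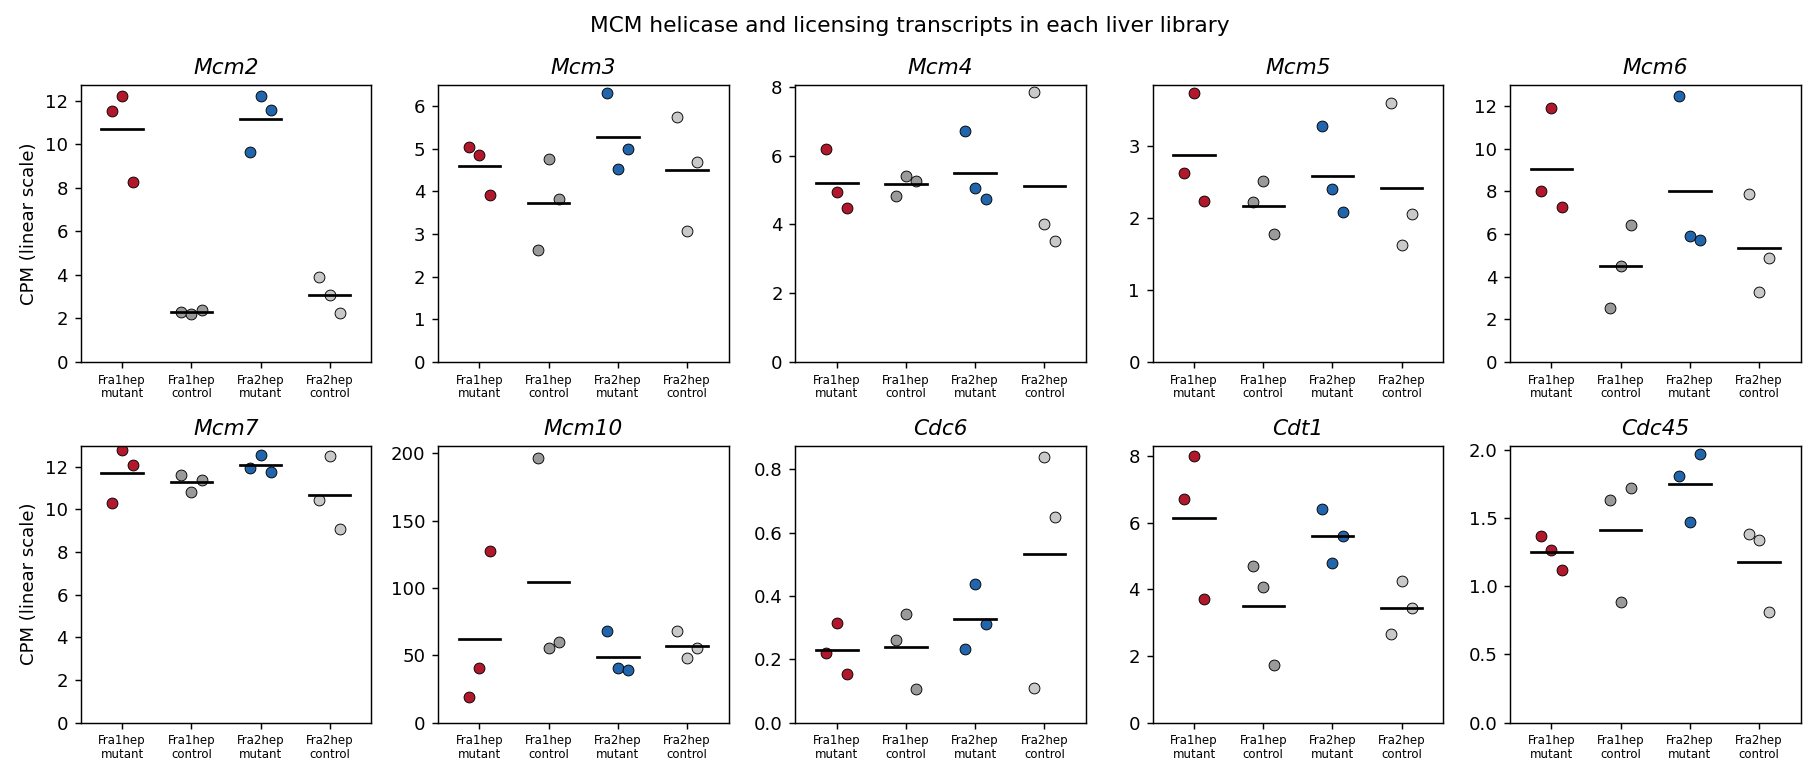
Each panel is 1 of the 10 members and each point 1 library, in CPM on a linear axis that starts at 0 and differs between panels; lines are group means. Mcm2 is the member whose mutant libraries lie clear of the control libraries in both strains, Mcm10 is widely scattered in Fra1hep, and Cdc6 stays below 1 CPM.

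Among the other ring subunits, Mcm3, Mcm4, Mcm5 and Mcm7 differed little between mutants and controls. Mcm3 had 5.03, 4.85 and 3.91 CPM in Fra1hep mutants, against 2.61, 4.77 and 3.82 CPM in Fra1hep controls. In Fra2hep it had 6.31, 4.53 and 4.98 CPM in mutants, against 5.74, 3.07 and 4.70 CPM in controls. Mutants and controls overlapped in both strains, and the log2 fold changes were 0.29 ± 0.28 in Fra1hep (adjusted p = 0.660) and 0.23 ± 0.28 in Fra2hep (adjusted p = 0.829).

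Mcm7, which with Mcm4 and Mcm6 makes up the core with helicase activity and had the highest level of the ring per length, was the steadiest. It had 10.3, 12.8 and 12.1 CPM in Fra1hep mutants, against 11.6, 10.8 and 11.4 CPM in Fra1hep controls. Fra2hep mutants had 11.9, 12.5 and 11.7 CPM, against 10.4, 12.5 and 9.07 CPM in Fra2hep controls. Its log2 fold change was 0.06 ± 0.14 in Fra1hep (95% interval -0.25 to 0.37) and 0.18 ± 0.14 in Fra2hep (95% interval -0.13 to 0.49), so changes of the size seen for Mcm2 lay outside both intervals. Mcm7 shares exon bases with Cops6 and Ap4m1 on the opposite strand, and the labels do not say whether reads were assigned by strand.

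Mcm4, a main target of the kinase that fires origins, and Mcm5, which forms the gate of the ring with Mcm2, also overlapped between mutants and controls. Mcm4 averaged 5.20 ± 0.883 CPM in Fra1hep mutants and 5.17 ± 0.300 CPM in Fra1hep controls, with a log2 fold change of 0.01 ± 0.29. In Fra2hep it averaged 5.50 ± 1.06 CPM in mutants and 5.12 ± 2.37 CPM in controls, with a log2 fold change of 0.10 ± 0.29. Mcm5 averaged 2.87 ± 0.781 CPM in Fra1hep mutants and 2.17 ± 0.368 CPM in Fra1hep controls, with a log2 fold change of 0.40 ± 0.33 (SD, n = 3 each). In Fra2hep, Mcm5 averaged 2.58 ± 0.618 CPM in mutants and 2.42 ± 1.04 CPM in controls, with a log2 fold change of 0.09 ± 0.33. Adjusted p for Mcm4 was 0.995 in Fra1hep and 0.941 in Fra2hep, and for Mcm5 0.604 in Fra1hep and 0.960 in Fra2hep.

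Mcm6 came closest to Mcm2 among the ring subunits, with wide spread. It had 8.04, 11.9 and 7.26 CPM in Fra1hep mutants, against 2.55, 4.52 and 6.40 CPM in Fra1hep controls. These groups did not overlap, but the gap between the lowest mutant and the highest control was small. Fra2hep mutants had 12.5, 5.89 and 5.71 CPM, against 7.90, 3.29 and 4.86 CPM in Fra2hep controls, and the groups overlapped. Replicate 1 was the highest library in both Fra2hep groups. The log2 fold change was 1.01 ± 0.43 in Fra1hep (95% interval 0.07 to 1.94; adjusted p = 0.265) and 0.58 ± 0.42 in Fra2hep (95% interval -0.34 to 1.51; adjusted p = 0.670). Neither passed the threshold, and the upper ends of both intervals reach above the lower end of Mcm2's.

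Cdt1, which brings the ring to origins and is inhibited outside G1 by geminin and by proteolysis, gave similar values. It had 6.73, 8.01 and 3.71 CPM in Fra1hep mutants, against 4.70, 4.08 and 1.72 CPM in Fra1hep controls. In Fra2hep it had 6.43, 4.80 and 5.61 CPM in mutants, against 2.65, 4.24 and 3.45 CPM in controls. The Fra1hep groups overlapped through mutant 3, and the Fra2hep groups did not overlap. The log2 fold change was 0.81 ± 0.37 in Fra1hep (adjusted p = 0.304) and 0.70 ± 0.37 in Fra2hep (adjusted p = 0.527). Over both strains together, Cdt1 averaged a log2 difference of 0.76 ± 0.26 (95% interval 0.18 to 1.33; adjusted p = 0.129) and Mcm6 one of 0.80 ± 0.30 (95% interval 0.14 to 1.45; adjusted p = 0.165).

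Cdc6, the other loading factor, was close to undetected. It had 4, 6 and 3 counts in Fra1hep mutants, against 4, 7 and 2 counts in Fra1hep controls. Fra2hep mutants had 4, 8 and 6 counts, against 2, 15 and 12 counts in Fra2hep controls. These counts were too few for a test, and a difference in either direction was not detectable at this depth.

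Neither factor for the start of unwinding was called in either strain. Cdc45, the helicase activator, had 1.37, 1.26 and 1.12 CPM in Fra1hep mutants, against 1.63, 0.884 and 1.72 CPM in Fra1hep controls. The Fra2hep mutants had 1.81, 1.47 and 1.97 CPM, against 1.38, 1.34 and 0.810 CPM in Fra2hep controls. The Fra2hep groups did not overlap and the Fra1hep groups did. Its log2 fold change was -0.17 ± 0.32 in Fra1hep (adjusted p = 0.850) and 0.57 ± 0.32 in Fra2hep (adjusted p = 0.553), and it rested on 15 to 38 counts per library. Part of Cdc45 overlaps Ufd1 on the opposite strand.

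Mcm10 stood apart from the other members in level, and in Fra1hep its libraries were widely spread. It had 342, 770 and 2517 counts in Fra1hep mutants, against 3015, 1131 and 1115 counts in Fra1hep controls. In Fra2hep it had 1162, 739 and 748 counts in mutants, against 1229, 863 and 1030 counts in controls. The highest Fra1hep mutant held 6.83 times the CPM of the lowest, and the highest Fra1hep control 3.54 times that of the lowest, against 1.75 in Fra2hep mutants and 1.41 in Fra2hep controls. Its log2 fold change was -0.74 ± 0.65 in Fra1hep (95% interval -2.17 to 0.69; adjusted p = 0.628) and -0.22 ± 0.65 in Fra2hep (95% interval -1.65 to 1.21; adjusted p = 0.942). Single libraries set the Fra1hep value: it was -1.83 without mutant 3 and 0.09 without control 1, neither of them called. Per kb of exon its mean over the 12 libraries was 8.86 CPM, against 2.58 CPM per kb for Mcm7.

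**Figure D2:**
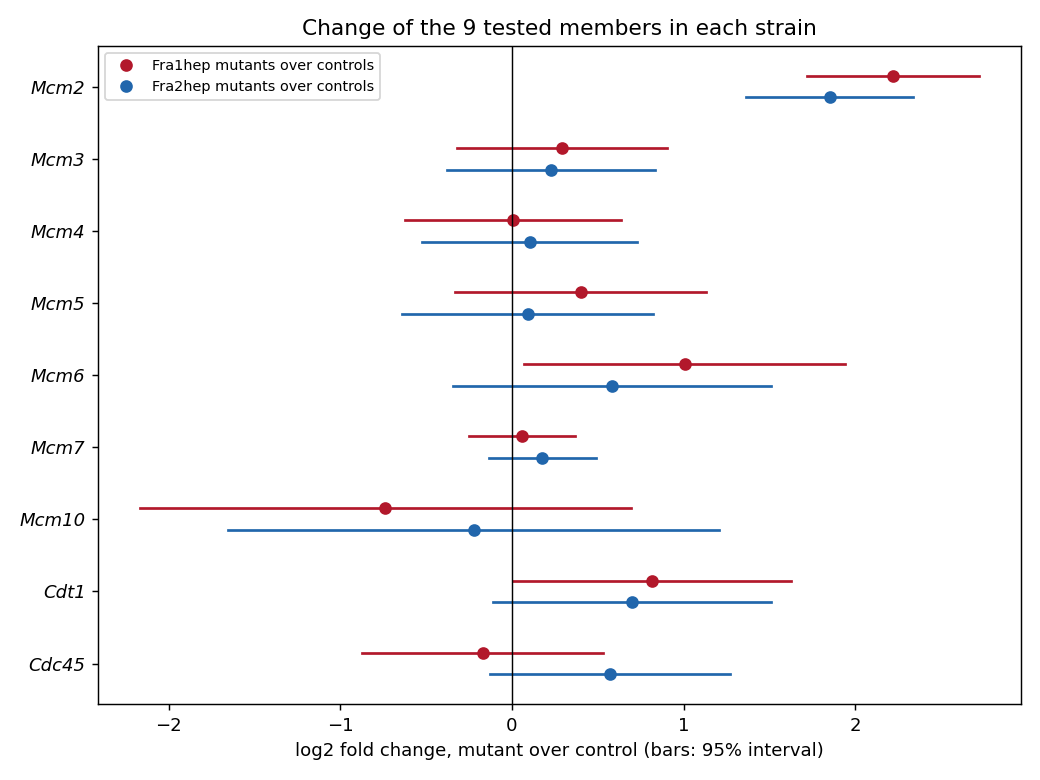
Log2 fold change of mutants over controls for the 9 tested members in each strain, with 95% intervals as bars. The intervals of Mcm2 run from 1.72 to 2.72 in Fra1hep and from 1.36 to 2.34 in Fra2hep; those of Mcm3, Mcm4, Mcm5, Mcm7, Mcm10 and Cdc45 end below them in both strains.

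Of the 8 tested members other than Mcm2, edgeR called 0 in Fra1hep, where it called 3.84% of all genes in either direction. It called 0 in Fra2hep, where it called 1.07% of all genes. DESeq2 and limma-voom also called 0 of the 8 in each strain. At an unadjusted p under 0.05, all 3 tools counted 2 in Fra1hep, Mcm6 and Cdt1, against 16.3% of all genes by edgeR, and 0 in Fra2hep, against 11.5% of all genes. For the average of both strains, edgeR called 0 of the 8 and 6.24% of all genes, the 2 with an unadjusted p under 0.05 were again Mcm6 and Cdt1, against 19.4% of all genes, and the lowest adjusted p among them was 0.129 by edgeR and 0.0613 by DESeq2.

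The median log2 fold change of these 8 was 0.18 in Fra1hep and 0.20 in Fra2hep, beside 0.01 and -0.01 for all genes tested. In Fra1hep 6 of the 8 and in Fra2hep 7 of the 8 were above 0. Of all 14076 genes tested, 7182 were above 0 in Fra1hep and 6907 in Fra2hep. Mutants lay wholly above controls for 1 of the other 9 members in Fra1hep, against 11.7% of all genes tested, and for 2 in Fra2hep, against 9.31%. The 95% interval lay wholly below that of Mcm2 for 7 of the 8 in Fra1hep, Mcm6 being the exception. In Fra2hep it did so for 6 of the 8, Mcm6 and Cdt1 being the exceptions. For the average of both strains it did so for all 8, whose folds ran from 0.717 to 1.74. The share of all genes with an interval below that of Mcm2 was not counted. Since Mcm2 was chosen for its high value, this order is a description and does not set the 8 apart from other genes.

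The response of the members was not shown to differ between strains. The difference of the log2 fold changes, Fra2hep minus Fra1hep, was -0.37 ± 0.31 for Mcm2 (95% interval -1.05 to 0.31). Of the other 8 members, 0 were called for this difference by edgeR, DESeq2 or limma-voom, and 0 had an unadjusted p under 0.05; edgeR called 0.0355% of all genes, and 6.32% had an unadjusted p under 0.05. The lowest adjusted p among the 8 was that of Cdc45, 0.863, with a difference of 0.74 ± 0.45.

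Fra2hep controls and Fra1hep controls were compared to see whether the starting levels matched. Mcm2 averaged 3.09 ± 0.827 CPM in Fra2hep controls and 2.29 ± 0.0785 CPM in Fra1hep controls. The log2 difference was 0.43 ± 0.23 (95% interval -0.08 to 0.94). Since these controls took part in the choice of Mcm2, this value is a description with no test. The other 8 gave 0 calls by edgeR, DESeq2 and limma-voom and 0 at an unadjusted p under 0.05, where edgeR called 0.0% of all genes and 5.35% had an unadjusted p under 0.05.

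The 6 ring subunits act in equal numbers, so their transcripts were set side by side per kb of exon. The place of Mcm2 among them depends on the length used for it, since 3 of its 7 annotated transcripts keep an intron: its exons join to 6956 bases, against 3371 bases for the principal transcript. By joined exons, in Fra1hep controls Mcm2 was the lowest of the 6 in all 3 libraries, at 0.329 ± 0.0113 CPM per kb, and Mcm7 the highest, at 2.54 ± 0.0939 CPM per kb. Between them stood Mcm4 at 1.44 ± 0.0835, Mcm3 at 0.995 ± 0.288, Mcm6 at 0.962 ± 0.413 and Mcm5 at 0.543 ± 0.0921 CPM per kb. Mcm3 and Mcm6 did not differ beyond their spread. By joined exons, Mcm2 in Fra1hep mutants had 1.54 ± 0.303 CPM per kb, which did not differ beyond the spread from Mcm4 at 1.45 ± 0.246 or Mcm6 at 1.94 ± 0.533 CPM per kb.

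By the same lengths, Mcm2 in Fra2hep mutants had 1.60 ± 0.193 CPM per kb, again within the spread of Mcm4 at 1.53 ± 0.297 and Mcm6 at 1.72 ± 0.829 CPM per kb. In Fra2hep controls it had 0.444 ± 0.119 CPM per kb and ranked 6, 5 and 6 of the 6 ring subunits. By principal transcripts both the rank and the likeness to Mcm4 were lost. Mcm2 then had 3.17 ± 0.625 CPM per kb in Fra1hep mutants, where Mcm4 had 1.45 ± 0.246 and Mcm6 3.12 ± 0.854, and 0.679 ± 0.0233 in Fra1hep controls, where Mcm5 had 0.641 ± 0.109. In Fra2hep it had 3.31 ± 0.398 CPM per kb in mutants, where Mcm4 had 1.53 ± 0.297 and Mcm6 2.76 ± 1.33, and 0.916 ± 0.245 in controls, where Mcm5 had 0.716 ± 0.306. Mcm2 was thus above Mcm4 beyond the spread in the mutants of both strains, and in the controls of both it did not differ from Mcm5 beyond the spread.

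By joined exons, Mcm3 to Mcm7 summed to 7.98 ± 0.976 CPM per kb in Fra1hep mutants and 6.48 ± 0.619 in Fra1hep controls, and to 8.03 ± 1.49 in Fra2hep mutants and 6.79 ± 1.62 in Fra2hep controls (SD, n = 3 each).

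Mcm2 made up 17.6, 16.3 and 14.3% of the ring's length-scaled transcripts in Fra1hep mutants, against 5.39, 4.46 and 4.72% in Fra1hep controls. In Fra2hep it made up 12.4, 19.4 and 19.1% in mutants, against 6.11, 6.99 and 5.29% in controls. The share was higher in every mutant than in any control of its strain. The absolute size of the share again depends on the length used. With the principal transcripts of all 6 subunits the mean share was 22.4% in Fra1hep mutants and 7.31% in Fra1hep controls, and 23.7% in Fra2hep mutants and 9.14% in Fra2hep controls.

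**Figure D3:**
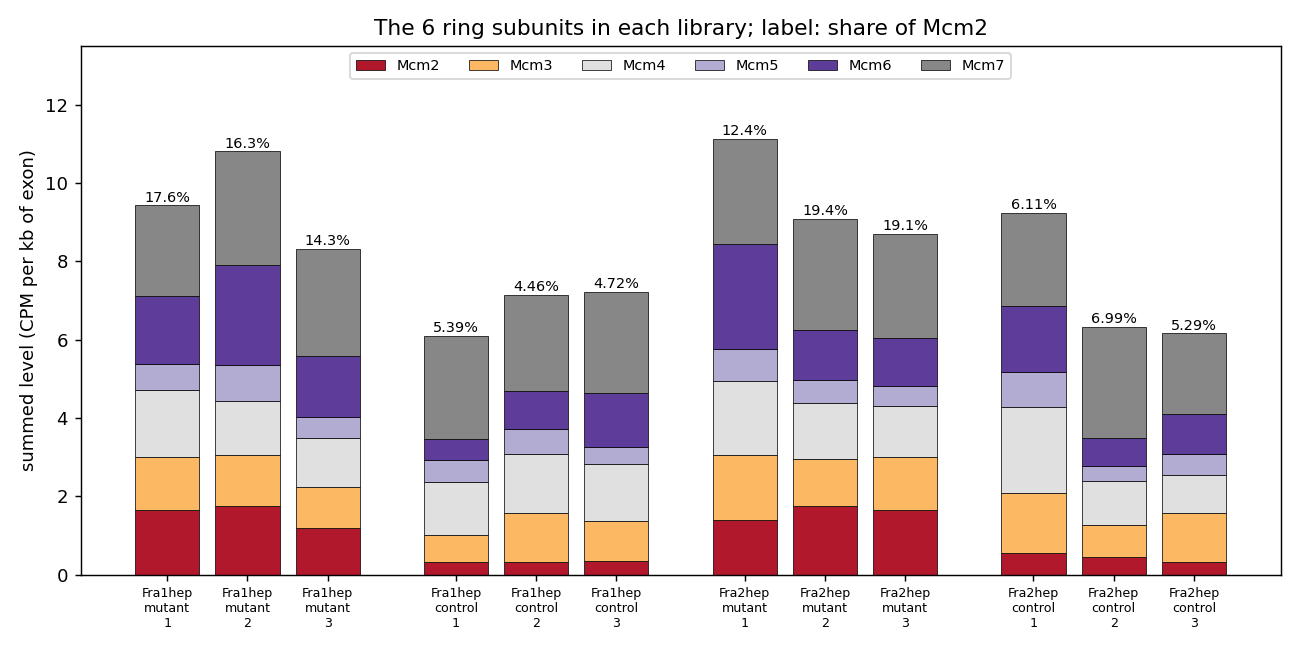
Stacked bars give the CPM per kb of joined exons of Mcm2 to Mcm7 in each library, with Mcm2 at the bottom and its share of the sum in percent above the bar. The share averaged 16.1% in Fra1hep mutants and 4.85% in Fra1hep controls, and 17.0% in Fra2hep mutants and 6.13% in Fra2hep controls.

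Promoter letters are shown for Mcm2, the subunit with the large difference, and for Mcm6, the subunit nearest to it in log2 fold change. Both are the 250 bases before the RefSeq start (GRCm38.p6), 5′ to 3′ on the gene's minus strand, at chr6:88898781-88899030 for Mcm2 and chr1:128359706-128359955 for Mcm6. Capitals mark matches to the E2F letters TTTNNCGC or GCGCCAAA on either strand; a GCGCCAAA on one strand reads TTTGGCGC on the other, so such matches overlap.
Mcm2: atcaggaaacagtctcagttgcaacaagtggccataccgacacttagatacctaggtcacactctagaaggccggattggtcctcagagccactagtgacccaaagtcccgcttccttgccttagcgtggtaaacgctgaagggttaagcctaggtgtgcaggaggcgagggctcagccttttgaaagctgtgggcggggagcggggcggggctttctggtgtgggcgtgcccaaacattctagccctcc
Mcm6: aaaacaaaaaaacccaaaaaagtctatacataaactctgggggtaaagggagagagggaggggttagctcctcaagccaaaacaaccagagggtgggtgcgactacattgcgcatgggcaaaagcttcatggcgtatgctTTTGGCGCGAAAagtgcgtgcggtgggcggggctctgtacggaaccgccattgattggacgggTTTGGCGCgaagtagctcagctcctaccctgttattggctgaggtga
RefSeq promoters matched 9 of the 10 members, giving 10 windows, with 2 for Mcm7. TTTNNCGC occurred in windows of Mcm5, Mcm6, Mcm7 and Cdc6, and in 4.28% of all 32851 promoter windows of that length. GCGCCAAA occurred in windows of Mcm5 and Mcm6, and in 0.417% of all promoters. Neither occurred in the windows of Mcm2, Mcm3, Mcm10, Cdt1 or Cdc45. The AP-1 letters TGANTCA, searched on both strands, occurred in 0 of the 10 windows and in 6.75% of all promoters. These matches are descriptions of letters in short windows and say nothing of whether a factor binds.

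Genes next to Mcm2 were examined to see whether it differed alone at its locus. Tpra1, a gene for a membrane protein, starts 3471 bases beyond the start of Mcm2 and runs the other way, at chr6:88902251-88912238. It had 42.2, 46.9 and 38.7 CPM in Fra1hep mutants, against 29.8, 27.1 and 25.0 CPM in Fra1hep controls. In Fra2hep it had 39.8, 35.1 and 38.4 CPM in mutants, against 23.7, 30.8 and 21.5 CPM in controls. The groups did not overlap in either strain. Tpra1 rose in Fra1hep by a log2 fold change of 0.64 ± 0.14 (adjusted p = 0.0248), a call that was lost on leaving out mutant 1 or 2 or any of the 3 Fra1hep controls, with an adjusted p of up to 0.109. In Fra2hep the value was 0.57 ± 0.14 (adjusted p = 0.0911; 0.0322 without Fra2hep control 2), and for the average of both strains 0.61 ± 0.10 (adjusted p = 0.00338).

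The other 3 nearest tested coding genes were not called in either strain. Plxna1, a semaphorin receptor 417534 bases away, had log2 fold changes of -0.19 in Fra1hep and 0.16 in Fra2hep. Abtb1, 41490 bases away, had -0.08 in Fra1hep and -0.19 in Fra2hep. Podxl2, 8430 bases away, held 1 to 31 counts per library and gave 1.87 ± 1.31 in Fra1hep and -0.06 ± 1.15 in Fra2hep.

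**Figure D4:**
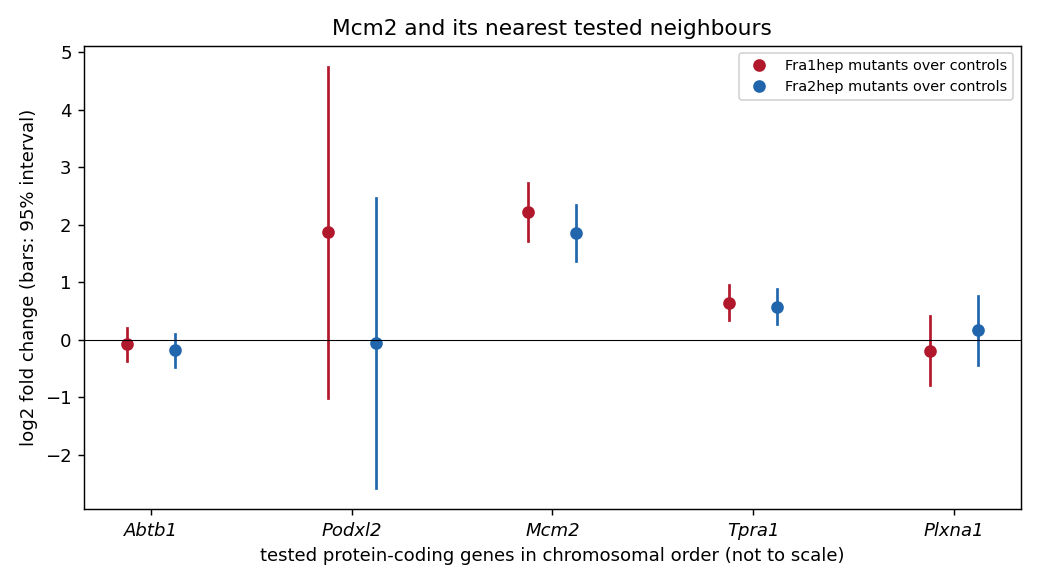
Log2 fold change of mutants over controls with 95% intervals for Mcm2 and the nearest 2 tested coding genes on each side of it, in their order on the chromosome. Mcm2 has the values 2.22 in Fra1hep and 1.85 in Fra2hep, and Tpra1, its divergent neighbour, 0.64 in Fra1hep and 0.57 in Fra2hep.

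Other genes of origin licensing and firing, among them the origin recognition complex, geminin, GINS and the kinases that fire origins, showed no called change. Of 24 tested of 27 listed, edgeR, DESeq2 and limma-voom each called 0 in Fra1hep and 0 in Fra2hep. By none of them did any have an unadjusted p under 0.05 in either strain. By edgeR, 16.3% of all genes had such a p in Fra1hep and 11.5% in Fra2hep. The median log2 fold change was -0.03 in Fra1hep and -0.06 in Fra2hep. Mcmbp, which binds and unloads ring subunits, had -0.01 in Fra1hep and -0.06 in Fra2hep, and Orc3, an origin recognition subunit, had -0.04 in Fra1hep and -0.08 in Fra2hep.

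Among genes of the replication fork, 29 tested of 30 listed, edgeR called 1 higher and 1 lower in Fra1hep. It called 3.84% of all genes there. Rpa2, a subunit of the single-strand binding protein RPA, rose to 9.43 ± 1.75 CPM in Fra1hep mutants, against 5.47 ± 0.578 CPM in Fra1hep controls (log2 fold change 0.79 ± 0.17, adjusted p = 0.0269). Rfc5, a subunit of the clamp loader, fell to 4.83 ± 0.534 CPM in Fra1hep mutants, against 8.71 ± 1.17 CPM in Fra1hep controls (log2 fold change -0.85 ± 0.18, adjusted p = 0.0226). Leaving out Fra1hep mutant 1 or 2 or any Fra1hep control ended the call of Rpa2, with an adjusted p of up to 0.103, and leaving out Fra1hep mutant 1, mutant 2 or control 1 ended that of Rfc5, with an adjusted p of up to 0.0951. In Fra1hep DESeq2 called Dnmt1 as well, and limma-voom called Rfc5 and Rpa2. At an unadjusted p under 0.05, edgeR counted 5 of the 29 in Fra1hep, against 16.3% of all genes. In Fra2hep 0 of the 29 were called by edgeR, DESeq2 or limma-voom. There 6 had an unadjusted p under 0.05, against 11.5% of all genes by edgeR. The list's median was 0.10 in Fra1hep and -0.01 in Fra2hep. For the average of both strains, edgeR called 2 of the 29, against 6.24% of all genes. These were Rpa2, with a log2 fold change of 0.52, and Rfc5, with -0.64. The call of Rfc5 held in all 12 fits that left out 1 library, and that of Rpa2 was lost in 6. Among 8 other settings, Rfc5 lost its call in 1 and Rpa2 in 2. For this average limma-voom called the same 2 genes and DESeq2 called 3, these among them.

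Genes of G1 and S entry held 1 call by edgeR among 24 tested of 26 listed in Fra1hep, where it called 3.84% of all genes. Rbl1, which encodes the pocket protein p107, rose to 4.22 ± 0.926 CPM in Fra1hep mutants, against 1.34 ± 0.402 CPM in Fra1hep controls (log2 fold change 1.64 ± 0.41, adjusted p = 0.0479). That call was lost on leaving out any Fra1hep library, Fra2hep mutant 1 or 3, or Fra2hep control 3, with an adjusted p of up to 0.190. In Fra1hep DESeq2 called 3, Cdk6, E2f2 and Rbl1, and limma-voom called 0. At an unadjusted p under 0.05, edgeR counted 6 of the 24 in Fra1hep, against 16.3% of all genes. In Fra2hep 0 of the 24 were called by edgeR, DESeq2 or limma-voom. There 2 had an unadjusted p under 0.05, against 11.5% of all genes by edgeR. For the average of both strains, edgeR called 2, against 6.24% of all genes, and DESeq2 called Cdk6 as well. Rbl1 rose by a log2 fold change of 1.35 ± 0.28 and E2f2, an activating E2F factor, by 1.42 ± 0.30 (adjusted p = 0.0158 for each). Without Fra2hep controls 1 and 2, which leaves 1 Fra2hep control that is assumed to vary like the other groups, E2f2 had an adjusted p of 0.159. E2f2 averaged 5.83 ± 1.67 CPM in Fra1hep mutants and 2.09 ± 1.15 CPM in Fra1hep controls, and 3.54 ± 0.929 CPM in Fra2hep mutants and 1.35 ± 0.503 CPM in Fra2hep controls.

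Genes of mitosis and proliferation overlapped between mutants and controls in their summed level. Of 18 tested of 20 listed, edgeR, DESeq2 and limma-voom each called 0 in Fra1hep and 0 in Fra2hep. At an unadjusted p under 0.05 edgeR counted 5 in Fra1hep, against 16.3% of all genes, and 0 in Fra2hep, against 11.5%. The median log2 fold change was 0.85 in Fra1hep and 0.16 in Fra2hep. The list summed to 27.2, 39.2 and 14.8 CPM in Fra1hep mutants, against 17.2, 18.5 and 20.3 CPM in Fra1hep controls. Of the 18 genes 16 had a positive log2 fold change in Fra1hep, as did 7182 of all 14076 genes tested. In this sum Fra1hep mutants 1 and 2 lay above all 3 controls and mutant 3 below them. The part of these genes in the values of Mcm2 was not tested. Mki67, the proliferation marker Ki-67, had 43, 90 and 16 counts in Fra1hep mutants, against 18, 25 and 24 counts in Fra1hep controls.

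In Fra2hep the mitotic list summed to 30.3, 27.3 and 28.8 CPM in mutants, against 37.7, 22.1 and 21.4 CPM in controls, and the groups overlapped. Between Fra2hep controls and Fra1hep controls all 18 tested genes had a positive log2 difference, with a median of 0.66. Of all 14076 genes tested, 7154 had one. For this list edgeR, DESeq2 and limma-voom called 0 and each counted 2 at an unadjusted p under 0.05. By edgeR 5.35% of all genes had such a p.

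**Figure D5:**
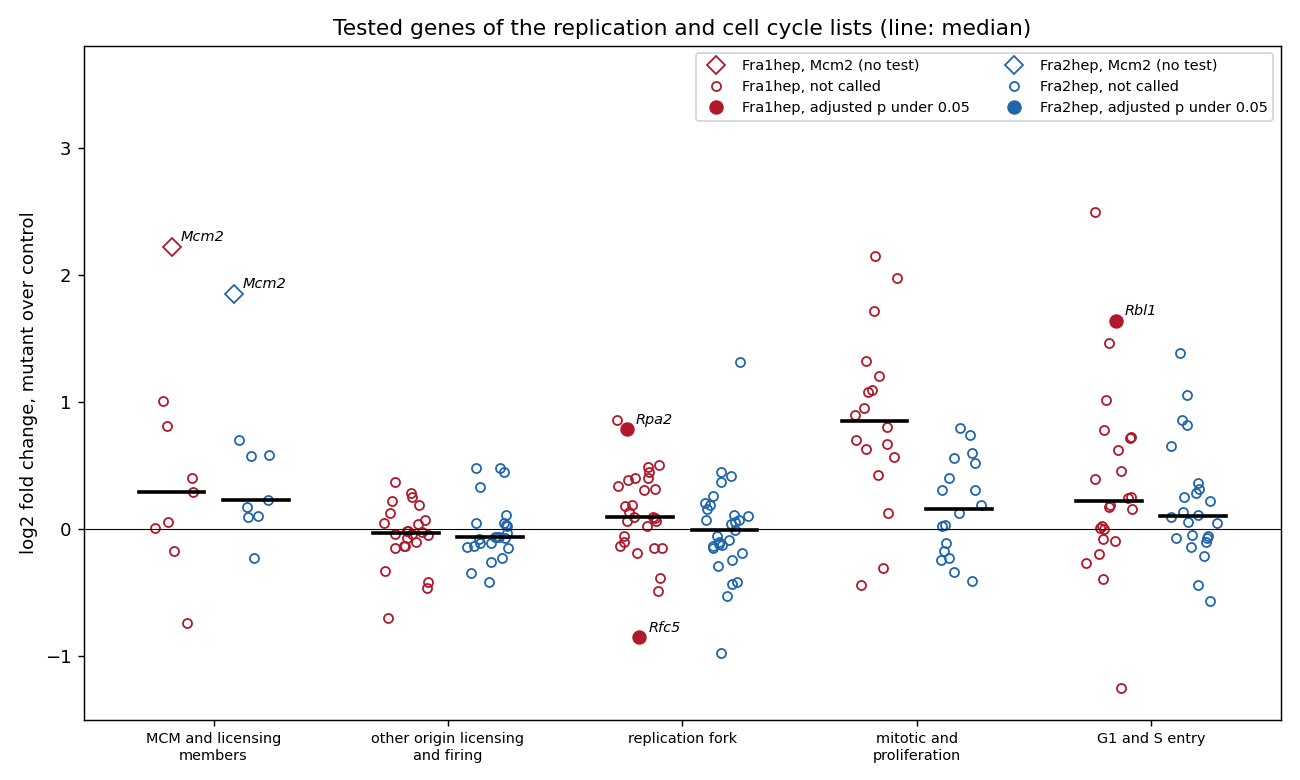
Log2 fold change of mutants over controls for each tested gene of the members and of the 4 lists, with the list median as a line and called genes filled; Mcm2, which carries no test, is a diamond. Filled points are Rpa2, Rfc5 and Rbl1 in Fra1hep, and the mitotic genes have a median of 0.85 in Fra1hep with none called.

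The 5 coding genes whose log2 CPM over the 12 libraries followed Mcm2 most closely were Entpd2, Mtmr11, Fam110c, Slc10a2 and Tgfbr2. Pearson's r ran from 0.970 for Tgfbr2 to 0.980 for Entpd2 over 12 libraries that share the same groups. They were picked for this likeness, so their values carry no test. Entpd2, an ectonucleotidase, had 24.0, 23.8 and 20.0 CPM in Fra1hep mutants, against 2.94, 2.41 and 3.23 CPM in Fra1hep controls. Slc10a2, the apical sodium-dependent bile acid transporter, had 113, 128 and 103 CPM in Fra1hep mutants, against 18.3, 13.3 and 16.4 CPM in Fra1hep controls. In Fra2hep the same gene had 95.4, 119 and 65.5 CPM in mutants, against 28.4, 16.2 and 13.6 CPM in controls.

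Tgfbr2, a receptor for TGF-beta, had a log2 fold change of 2.66 in Fra1hep and 1.92 in Fra2hep, and Mtmr11, a myotubularin-related protein, 4.92 in Fra1hep and 3.34 in Fra2hep. Fam110c gave 4.48 in Fra1hep and 3.07 in Fra2hep. None of these 5 is a gene of the ring, of its loading factors or of the 4 lists.

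Markers of liver cell types were summed to show what else moved with the groups. The 8 hepatocyte markers summed to 51218 to 105169 CPM in Fra1hep mutants and 82485 to 119620 CPM in Fra1hep controls, and to 56164 to 71122 CPM in Fra2hep mutants and 101313 to 126553 CPM in Fra2hep controls. The 8 macrophage markers ran from 290 to 384 CPM in Fra1hep mutants and from 251 to 433 CPM in Fra1hep controls, and from 321 to 544 CPM in Fra2hep mutants and 212 to 533 CPM in Fra2hep controls. The 9 lymphocyte markers ran from 18.4 to 38.1 CPM in Fra1hep mutants and 14.3 to 19.5 CPM in Fra1hep controls, and from 17.5 to 30.7 CPM in Fra2hep mutants and 19.3 to 22.9 CPM in Fra2hep controls. These 3 lists held 0 calls by edgeR and limma-voom in either strain, while DESeq2 called Pck1 in Fra1hep and Alb and Apoa1 in Fra2hep. For the average of both strains, edgeR called 1 of the 8 hepatocyte markers, against 6.24% of all genes. This was Apoa1, which was lower, with a log2 fold change of -1.02. Its call was lost in 4 of the 12 fits that left out 1 library. For the same average limma-voom called Alb and Apoa1, and DESeq2 called 3 hepatocyte markers, these among them. By edgeR, 5 hepatocyte markers in Fra1hep, 3 in Fra2hep and 1 lymphocyte marker in Fra1hep had an unadjusted p under 0.05. Of all genes, 16.3% in Fra1hep and 11.5% in Fra2hep had such a p by edgeR. The hepatocyte sums overlapped in Fra1hep and were lower in every Fra2hep mutant than in any Fra2hep control. That sum is mostly Alb, which encodes albumin and averaged 44438 ± 8679 CPM in Fra2hep mutants and 92123 ± 14053 CPM in Fra2hep controls. The median log2 fold change of the 8 was -0.48 in Fra1hep, with 2 positive, and -0.05 in Fra2hep, with 3 positive. Hnf4a, a hepatocyte transcription factor, averaged 708 ± 67.8 CPM in Fra2hep mutants and 600 ± 120 CPM in Fra2hep controls. All hepatocyte markers were detected in each group.

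The 9 stellate and endothelial markers ran from 375 to 441 CPM in Fra1hep mutants and 271 to 326 CPM in Fra1hep controls, and from 287 to 340 CPM in Fra2hep mutants and 352 to 391 CPM in Fra2hep controls. Mutants and controls thus stood in opposite order in the 2 strains for this sum. In this list edgeR called 1 of the 9 in Fra1hep, against 3.84% of all genes, and 0 in Fra2hep, against 1.07%. Dcn, which encodes decorin, rose in Fra1hep (log2 fold change 0.86 ± 0.12, adjusted p = 0.00239). It averaged 207 CPM in Fra1hep mutants, where the list's sum averaged 418 CPM, and 114 CPM in Fra1hep controls. In Fra2hep it averaged 151 CPM in mutants and 177 CPM in controls. Between the controls of the 2 strains DESeq2 called Dcn, and edgeR and limma-voom did not. The 6 cholangiocyte markers ran from 28.9 to 322 CPM in Fra1hep mutants and 75.2 to 105 CPM in Fra1hep controls, and from 74.7 to 202 CPM in Fra2hep mutants and 37.1 to 199 CPM in Fra2hep controls. This cholangiocyte sum was mostly Spp1, which averaged 156 ± 140 CPM in Fra1hep mutants, where the sum averaged 170 CPM. The 8 neutrophil and erythroid markers ran from 137 to 206 CPM in Fra1hep mutants and 267 to 380 CPM in Fra1hep controls, and from 168 to 248 CPM in Fra2hep mutants and 194 to 345 CPM in Fra2hep controls. In Fra1hep that difference was one of Alas2, the erythroid enzyme of heme synthesis, which averaged 66.8 ± 42.0 CPM in mutants and 229 ± 57.8 CPM in controls. Of the 5 tested markers of this list 4 had a positive log2 fold change in Fra1hep, with a median of 0.38. Ly6g, a neutrophil marker, was at 0 in 3 of the 4 groups. The part of these cell types in the values of Mcm2 was not tested.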

How the data were processed

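Per the labels' protocols, polyadenylated RNA was purified from Trizol extracts of liver and made into strand-specific libraries. The authors deposited 1 table of whole-number counts per gene, not normalized. The submitters' processing notes name DESeq2 1.22.2, bedtools 2.27.1, RSEM, STAR 2.6.1a and the build GRCm38 (mm10). They do not say which of these made the counts, with which gene models, or whether strand was used, so counts of overlapping genes are uncertain. Groups came from the titles. No pair of libraries within a group agreed within sampling noise.

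The members, lists and tests were chosen with earlier results of these data known. Genes passing filterByExpr were fitted on the whole table with edgeR 4.0.16 (R 4.3.3): TMM factors, 4 group means over 12 libraries, robust quasi-likelihood F tests, two-sided, with Benjamini-Hochberg adjustment over all 14076 genes tested and a threshold of 0.05. Every adjusted p in the text is from that fit unless another tool is named. Standard errors came from the test statistic. CPM used TMM-scaled totals. The average contrast is the mean of both strains' effects and shares libraries with each. Alternatives changed the scaling (RLE factors or library totals alone), the test (limma-voom in limma 3.58.1, or DESeq2 1.42.0), the filter (none, or 1 CPM in at least 3 libraries) and the libraries (those compared alone, each omitted in turn, or Fra2hep controls 1 and 2 omitted together), or added a block for the replicate number. Coordinates and exon lengths are from GENCODE M21 on GRCm38. The scripts were tested on simulated counts. The named genes were all members, Fosl1 and Fosl2, in each list up to 4 called genes or else the 2 with the highest mean CPM, the 5 coding genes most correlated with Mcm2, and the 2 nearest tested coding genes on each side of it; Dcn, Ly6g, Alb, Apoa1, Pck1, Hnf4a and Alas2 stand beside their marker lists.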

Additional observations from a re-analysis of the deposited data

How the results depend on the processing

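Members other than Mcm2 gave 0 calls in all 102 combinations of a contrast with 1 of 21 alternative settings. Contrasts of the same setting share libraries, so these are not 102 separate fits. Mcm2's log2 fold change ran from 2.11 to 2.36 in Fra1hep and from 1.67 to 2.06 in Fra2hep when 1 library was left out, and from 2.19 to 2.36 in Fra1hep and 1.84 to 2.29 in Fra2hep under the other settings. Same-numbered mutants and controls did not deviate together (correlations -0.105 to 0.0551). With 3 libraries per group, these correlations cannot settle whether the numbers pair the mice. With the replicate block, Mcm2 had 2.20 in Fra1hep and 1.87 in Fra2hep, and members other than Mcm2 again gave 0 calls. All genes called with the block were 288 higher and 83 lower in Fra1hep, against 408 and 132 without it. With no length scaling the share of Mcm2 in the ring was 24.1% in Fra1hep mutants and 7.90% in Fra1hep controls, and 25.4% in Fra2hep mutants and 9.88% in Fra2hep controls; with principal transcript lengths, an alternative chosen after seeing the data, it was 22.4% in Fra1hep mutants and 7.31% in Fra1hep controls, and 23.7% in Fra2hep mutants and 9.14% in Fra2hep controls. Uncalled values near 0 changed sign in some of 21 alternatives: Mcm4 in 7, Mcm7 in 1 and Mcm10 in 1 in Fra1hep, and Mcm4 and Mcm5 in 3 each in Fra2hep. All genes called ran from 215 to 678 higher and 52 to 343 lower in Fra1hep, and from 41 to 315 higher and 7 to 133 lower in Fra2hep, the highest counts being those of DESeq2 (678 and 343 in Fra1hep, 315 and 133 in Fra2hep). Leaving out the scaling factor moved the median log2 fold change of all genes in Fra1hep to 0.15. In Fra1hep, Rbl1 was not called by limma-voom (adjusted p = 0.0571), and the replicate block ended the calls of Rpa2 (0.0742), Rfc5 (0.0731) and Tpra1 (0.0813), as it did that of E2f2 in the average. Fits on the compared libraries alone ended the Fra1hep calls of Rpa2 (0.111) and Rfc5 (0.0706), and leaving out Fra2hep controls 1 and 2 together also ended that of Rpa2. Counts of 15 to 243 per library for the tested members other than Mcm10 limit what could be detected: the 95% intervals allow up to 1.94 on the log2 scale for Mcm6 in Fra1hep.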

Other observations

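Over the 12 libraries the log2 CPM of Mcm10 was most like that of Mamdc4, Timm50 and Mrps25, with Pearson's r of 0.905, 0.905 and 0.900; these genes were picked after their values were seen, and the libraries share groups. Mrps25, a mitochondrial ribosomal protein gene, had 10.7, 13.0 and 14.5 CPM in Fra1hep mutants, against 16.8, 12.7 and 13.2 CPM in Fra1hep controls, where Mcm10 had 18.7, 40.6 and 128 CPM in Fra1hep mutants, against 197, 55.6 and 60.0 CPM in Fra1hep controls. In both genes Fra1hep mutant 1 was the lowest and Fra1hep control 1 the highest of the 12 libraries.

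Cdkn1a, the cell cycle inhibitor p21, was chosen after its values were seen. It had 57, 1628 and 143 counts in Fra1hep mutants, against 103, 82 and 118 counts in Fra1hep controls. In Fra2hep it had 281, 331 and 519 counts in mutants, against 204, 141 and 292 counts in controls. In CPM the Fra2hep groups did not overlap, with 16.4 to 26.9 CPM in mutants and 7.87 to 15.8 CPM in controls. Mutants lay wholly above controls for 9.31% of all genes tested in Fra2hep. Fra1hep mutant 2 was also the library with the highest mitotic sum, 39.2 CPM, and its Mcm2 was 12.2 CPM. The log2 fold change of Cdkn1a was 2.49 ± 0.96 in Fra1hep (adjusted p = 0.215) and 0.82 ± 0.90 in Fra2hep (adjusted p = 0.813).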
